A study of Mus musculus with 10 samples.

Results

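The autosomal genes for proteins of the cytosolic ribosome were followed in labelled RNA of mouse embryonic stem cells (ESCs) over a time course of Xist induction. Members were all genes of the deposited tables whose names start with Rpl or Rps, with an optional a or p, followed by a digit. Genes named Rps6k and genes on chromosomes X, Y and 16 were left out, as were genes with a mean total count under 20 over the 10 samples. This left 75 of 24386 genes in the tables, from 95 that match the name. Of the others, 4 lie on chromosome X, 4 on chromosome 16 and 12 fell under the count minimum. The rule does not take in ribosomal protein genes with other names, such as Rpsa, Fau and Rack1.

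Cells of the TX1072 line were used, a female hybrid ESC line (Mus musculus castaneus x C57BL/6) with a doxycycline (DOX) inducible promoter in front of the endogenous Xist on the C57BL/6 (B6) X chromosome. All groups carry this promoter, and no group received DOX without an inducible Xist. DOX at 1 µg/ml was given from 24 h after plating for 0, 4, 8, 12 or 24 h in medium with serum, LIF and 2i, with 2 replicates at each time, so that hours of DOX and hours in culture cannot be told apart. In transient transcriptome sequencing (TT-seq), RNA made during 5 min of 4-thiouridine (4sU, 0.5 mM) is purified and sequenced.

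Ribosomal protein genes encode the protein part of the large (Rpl) and small (Rps) ribosomal subunits, which join ribosomal RNA in the nucleolus in fixed proportions. They are among the most strongly transcribed genes of growing cells. Their mRNAs carry a terminal oligopyrimidine (TOP) tract, a C followed by pyrimidines at the 5′ end, through which mTOR signalling adjusts their translation. Many hold small nucleolar RNAs (snoRNAs) in their introns, and many have processed pseudogenes, intron-less copies elsewhere in the genome.

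The 10 libraries held 18809046 to 22274929 counts, and 0 h replicate 1 stood apart from the other 9. It had 49.2% of its counts assigned to an allele against 51.7 to 52.8% in the others, and 1.38% in the ribosomal RNA entry Rn45s against 0.892 to 1.19%. Results that rest on it are therefore given with and without it. Values of a gene are given as CPM (the count scaled to a fixed library size, with TMM factors). Sums over the family and all values of the marker genes below are CPM of the unscaled library total. The ESC markers Nanog (271 to 328 CPM), Zfp42 (315 to 360), Esrrb (984 to 1082) and Tfcp2l1 (836 to 978) were high in every library, and Pou5f1 lay at 102 to 139. Sox2 was listed at 0 in all 10 libraries, and whether it was transcribed was not tested. The 5 fibroblast markers summed to 2.96 to 6.06 CPM, the 4 primitive endoderm markers to 2.49 to 4.12 CPM and the 5 markers of primed or early lineage cells to 9.76 to 15.9 CPM, the last lower in each library from 8 h on than in each library of 0 and 4 h. Whether this moved with the ribosomal protein genes was not tested.

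The 75 members comprised 35 proteins of the large subunit, 28 of the small subunit, the 3 stalk proteins Rplp0, Rplp1 and Rplp2, and 9 others. The others were the paralogs Rpl7l1, Rpl10l, Rpl22l1, Rpl36al and Rps27l, the pseudogenes Rpl14-ps1, Rpl37rt and Rps4l, and Rps19bp1, which encodes a binding partner of Rps19 and no ribosomal protein. The deposited gene spans include introns and measured 0.694 to 11.8 kb, with a median of 3.07 kb. Some 26 members held at least 1 annotated snoRNA on their own strand.

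For members that carry the results below, the sequence around the annotated transcription start (RefSeq, GRCm38.p6) is shown from 40 bases before it to the 20 bases that begin with it. Capitals mark the unbroken run of C and T that touches the start. The first 3 are strongly transcribed members with an entry, and Rps25 is a member that followed the family most closely. Rps15a is the canonical member that followed it least, and Rps21 varied most. Rps6 and Rpl14 are shown for their TOP-like tract. The starts of Rps15a and Rps21 were also a C followed by at least 4 pyrimidines.

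Rps12, chr10:23787190-23787249, minus strand: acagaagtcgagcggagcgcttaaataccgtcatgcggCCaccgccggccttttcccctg
Rpl41, chr10:128549149-128549208, minus strand: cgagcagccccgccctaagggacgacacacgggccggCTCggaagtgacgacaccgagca
Rpl12, chr2:32961672-32961731, plus strand: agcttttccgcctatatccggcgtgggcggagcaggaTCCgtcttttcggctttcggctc
Rps25, chr9:44407674-44407733, plus strand: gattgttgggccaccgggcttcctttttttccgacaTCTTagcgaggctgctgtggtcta
Rps15a, chr7:118116128-118116187, minus strand: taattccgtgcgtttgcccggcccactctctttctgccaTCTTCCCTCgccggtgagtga
Rps21, chr2:180257339-180257398, plus strand: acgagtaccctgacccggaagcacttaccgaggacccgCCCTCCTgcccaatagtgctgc
Rps6, chr4:86857348-86857407, minus strand: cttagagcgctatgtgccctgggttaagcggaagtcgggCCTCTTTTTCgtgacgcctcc
Rpl14, chr9:120571477-120571536, plus strand: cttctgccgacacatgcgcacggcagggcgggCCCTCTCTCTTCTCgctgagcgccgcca

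Promoter windows were on hand for 54 of the 75 members, from 250 bases before to 50 bases after the start, and the window nearest to the deposited 5′ end was taken. In 11 of the 54 (20.4%) the annotated start was a C followed by at least 4 pyrimidines, against 2.51% of all 32851 windows. The letters CCGGAAG, searched on both strands, stood in 21 (38.9%) against 8.86% of all windows. The palindrome CTCGCGAG stood in 5 (9.26%) against 0.919%, and GGGCGG on either strand in 34 (63%) against 35.7%. A TATAAA in the 50 bases before the start was held by 1 member, Rpl22l1, which is 1.85% against 2.63% of all windows. AAGATGGC on either strand stood in 4 (7.41%) against 2.75%. Matches of different motifs can share bases, and a match describes the window only.

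Per length, nearly all members were transcribed strongly. Levels are given as CPM per kb of gene span, and 72 of 75 lay above the 95th percentile of the 14525 genes tested. The median over members was 37.1 CPM per kb against 0.988 over all tested genes. Among the 66 canonical members the level ran from 16.1 (Rps16) to 111 CPM per kb (Rps12), a range of 6.92-fold. Reads were kept only where they aligned uniquely, so members with near-identical pseudogenes may have lost reads, and the order of levels is uncertain to that extent.

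Rps12, a protein of the small subunit whose introns hold 3 snoRNAs, was highest, with a level of 99.1 to 131 CPM per kb and a median of 111 over the 10 libraries. Rplp1, of the acidic stalk that recruits elongation factors, had a level of 84.4 to 131 with a median of 92.8, so that its highest library reached that of Rps12. Rpl41, a very short peptide of the large subunit, had a level of 75.3 to 118 with a median of 86.9. Rpl3, which lies near the peptidyl transferase centre, had a level of 76.6 to 95.3 with a median of 82.7, and the most counts of all members (9747 on average). Rpl12, at the base of the stalk, had a level of 66.5 to 89.5 with a median of 72.1. These 5 ranges overlapped, each with the next. Over the whole order, 7 of 74 neighbouring pairs were apart by more than the larger SD of the pair.

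The lowest levels belonged to members that are not canonical ribosomal proteins. Rps19bp1 had a level of 1.23 ± 0.12 (SD, n = 10), the pseudogene Rpl37rt 1.35 ± 0.0914 and the pseudogene Rpl14-ps1 3.25 ± 0.521 CPM per kb. Of the paralogs, Rpl10l had 10.9 ± 1.08, Rps27l 12.5 ± 1.04, Rpl7l1 12.8 ± 0.953, Rpl36al 18.3 ± 3.01 and Rpl22l1 22.0 ± 2.17, while the pseudogene Rps4l had 22.6 ± 2.64. The parent of Rpl22l1, Rpl22, stood at 16.9 ± 0.728, below its paralog. The 5S particle, Rpl5 and Rpl11, which carries 5S ribosomal RNA into the subunit and can bind Mdm2, was unequal in level, with Rpl5 at 37.8 ± 2.11 and Rpl11 at 22.1 ± 1.88. Rps27a, made as a fusion with ubiquitin, had a level of 39.0 ± 4.01.

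**Figure D1:**
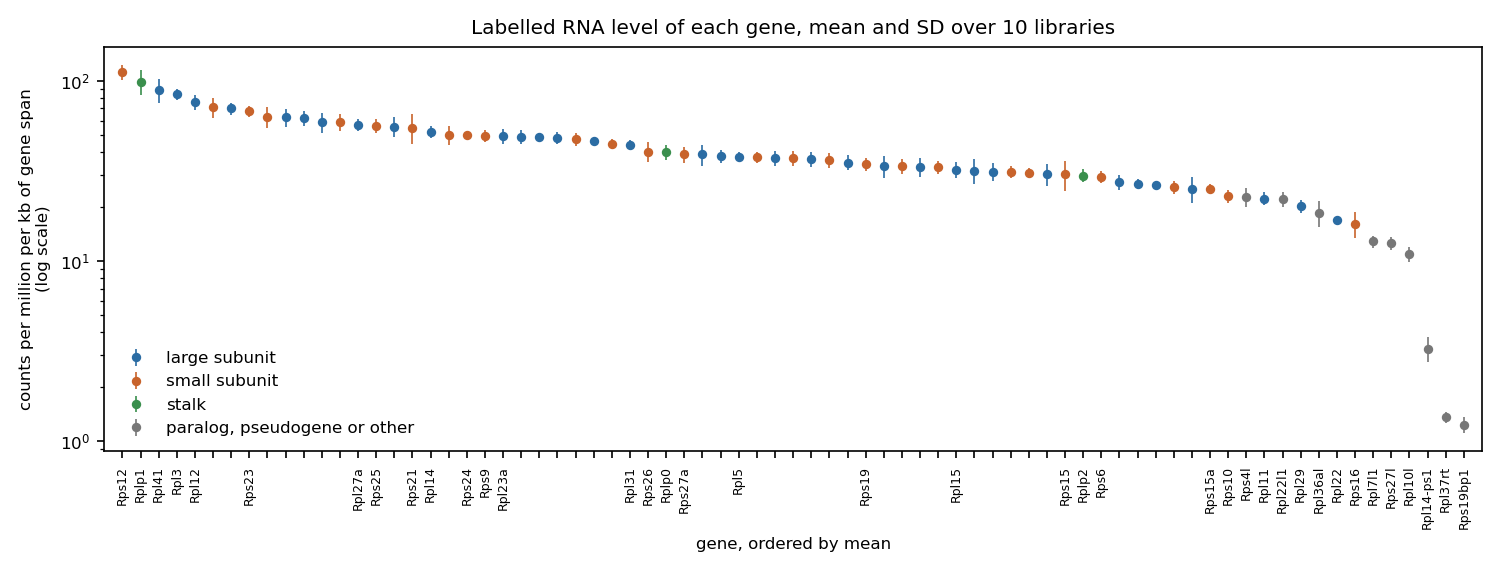
Level of labelled RNA of each of the 75 genes (y axis, CPM per kb of gene span, log scale), ordered by mean (x axis, genes named in the text labelled). Points are means and bars the SD over the 10 libraries, with colours for the role. The canonical members lie between 16.1 and 111, and the 3 lowest points are Rps19bp1, Rpl37rt and Rpl14-ps1.

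Of the 12 genes under the count minimum, 4 are canonical. Rpl26 and Rps27 had a mean total count of 0, Rpl34 had 1.6 and Rpl30 had 2.2. Between 97.8 and 99.9% of each span is also covered on the same strand by another entry of the table (Gm15772, Rps27rt, Rpl34-ps1 and Gm12191), and the highest mean count among those entries was 5.1. Whether these genes are transcribed was therefore not measured. Of the other 8, the muscle paralog Rpl3l had a mean of 6.7 and the pseudogenes up to 14.1 (Rps19-ps3).

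As a family, the members took about 1% of all counts, and the replicates of a time differed as much as the times did. The share was 1.12 and 0.923% at 0 h (replicates 1 and 2), 0.972 and 0.907% after 4 h, 0.868 and 0.996% after 8 h, 0.871 and 0.864% after 12 h, and 1.05 and 0.891% after 24 h. The libraries after 12 h were both below both at 0 h, while those of the other times overlapped them or each other. The mean fell from 1.02 ± 0.142 (SD, n = 2) at 0 h to 0.867 ± 0.00543 after 12 h, a difference close to the SD at 0 h, and stood at 0.969 ± 0.111 after 24 h. With 2 against 2 libraries an exact permutation test cannot reach the 5% level, so none was run on these shares.

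Reads with and without an allele were also counted apart. Reads of the members assigned to B6 or Cast made up 4665 and 4484 CPM at 0 h, 4359 and 4261 after 4 h, 4064 and 4405 after 8 h, 3971 and 4071 after 12 h, and 4903 and 4333 after 24 h. Reads assigned to neither allele made up 6566 and 4742 CPM at 0 h, 5365 and 4808 after 4 h, 4615 and 5551 after 8 h, 4742 and 4564 after 12 h, and 5575 and 4575 after 24 h. In 0 h replicate 1 the reads without an allele were thus the highest of all libraries, and its reads with an allele were near those of 0 h replicate 2. Over the other 9 libraries, reads without an allele ran from 4564 to 5575 CPM and reads with one from 3971 to 4903 CPM, similar ranges relative to their levels. In that library 41.5% of the members' reads had an allele, against 44.2 to 48.6% in the other 9. Reads without an allele were also more frequent there over the other autosomal genes, at 444866 CPM against 414996 to 425570. The part of this in the results was not tested.

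**Figure D2:**
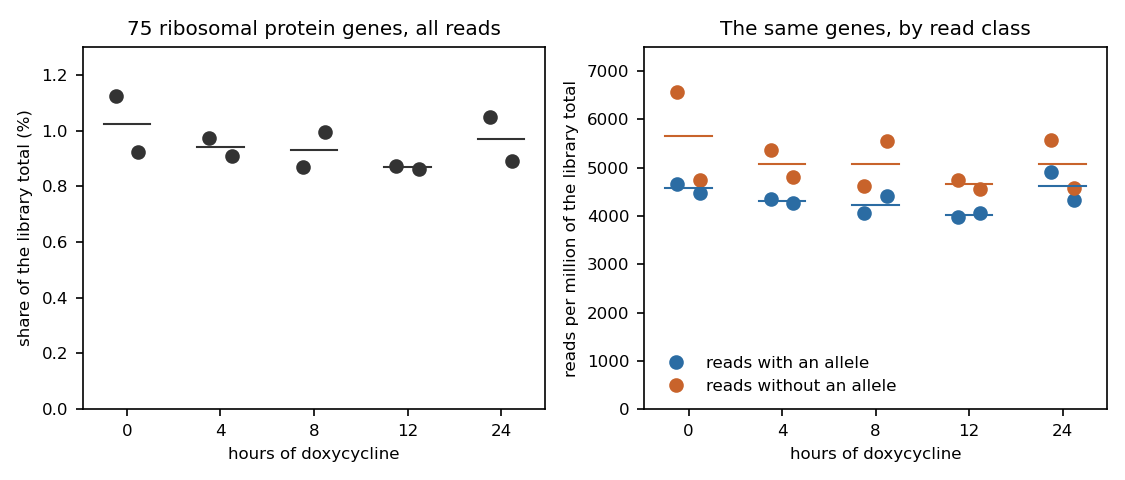
Left, share of each library's total count that fell in the 75 genes (%); right, their CPM, split into reads with and without an allele. Each point is a library and each line the mean of the 2 replicates at that time (x axis, hours of DOX, not to scale). Replicate 1 at 0 h is the highest library for all reads (1.12%) and for reads without an allele (6566 CPM), but not for reads with one.

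No member was called changed in total count at any time against 0 h. With edgeR's quasi-likelihood test and Benjamini-Hochberg adjustment over 14525 genes, 0 of 75 members had an adjusted p under 0.05 at 4, 8, 12 or 24 h, where 0.0138, 0.193, 0.95 and 1.85% of all tested genes were called, and 0 for the slope over hours (3.15% of all tested genes). DESeq2 and limma-voom also called 0 in each comparison. All tested genes, here and below, include X-linked genes, which the rule leaves out of the members. Of 3724 other autosomal genes in the members' span range, edgeR called 0 after 4 h and 0 after 8 h. After 12 h it called 1 of them higher and 4 lower, and after 24 h 3 higher and 5 lower. For the slope these were 17 higher and 8 lower. The smallest adjusted p of a member was 0.148, for Rpl22l1 after 12 h. At an unadjusted p under 0.05, 1, 2, 21 and 0 members were lower at 4, 8, 12 and 24 h, against 1.2, 2.83, 6.1 and 5.69% of all tested genes, and no member was higher at any time, against 0.895, 1.23, 5.42 and 4.6%. After 12 h the lower members were 38 with library totals only (9.12% of all genes) and 43 with no filter on low counts (5.48%). For the slope 2 members, Rpl41 among them, were lower and 0 higher at an unadjusted p, against 7.08 and 6.15%.

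Nearly all members nonetheless stood on the lower side of 0 h. The median log2 change was -0.11 after 4 h, -0.090 after 8 h, -0.19 after 12 h and -0.083 after 24 h, while the median over all tested genes was within 0.01 of 0 at each time. Other autosomal genes in the members' span range had medians of -0.060, -0.078, -0.089 and 0.014 at these times, and mitochondrial ribosomal protein genes -0.064, -0.047, -0.086 and 0.044. Part of the members' shift was thus shared by short genes, and after 8 h their medians were close. At 4 and 8 h 71 of 75 members had a negative value, after 12 h 74 and after 24 h 61. Both libraries of a time were below both 0 h libraries for 16 of 75 members after 4 h and for 12 after 8 h, against 13.4 and 15.8% of all tested genes. This was so for 46 members (61.3%) after 12 h against 21.3%, and for 3 (4%) after 24 h against 17.3%. Both were above for 0, 1, 1 and 1 members, against 11.6, 14.4, 19.4 and 19%. The members move together from library to library (below), so these counts are not independent observations.

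This lower side depended on single libraries, above all on 0 h replicate 1. Without that library the median log2 change of the members was 0.052 after 4 h, 0.034 after 8 h, -0.055 after 12 h and 0.066 after 24 h, and 1 member (1.33%) was lower after 12 h at an unadjusted p under 0.05, against 5.15% of all genes tested in that fit. Without 0 h replicate 2 it was -0.24, -0.23, -0.34 and -0.22, and 59 members (78.7%) were lower after 12 h at an unadjusted p, against 8.05% of all genes. Without 8 h replicate 1 the median after 8 h was 0.00031, and without 24 h replicate 2 the median after 24 h was 0.021. Reads with an allele gave medians of -0.10, -0.13, -0.19 and -0.02, and reads without one -0.11, -0.08, -0.20 and -0.11, again with 0 members called.

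**Figure D3:**
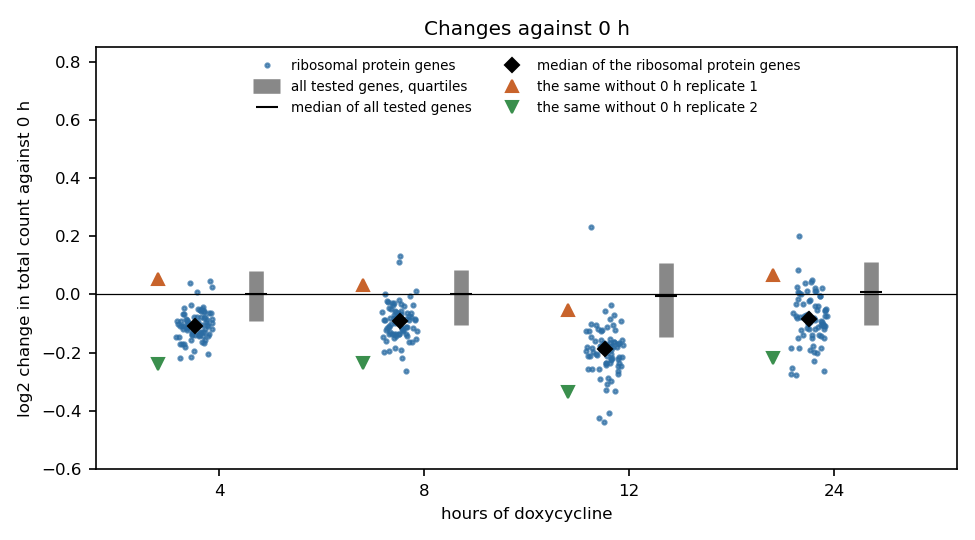
Log2 change in total count against 0 h (y axis) at each time (x axis, hours of DOX, not to scale). Points are the 75 genes, diamonds their median, grey bars the quartiles of all tested genes, and triangles the members' median when either 0 h library is left out. The median lies below 0 at each time (-0.19 after 12 h) and above it at 4, 8 and 24 h without replicate 1 of 0 h.

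With the replicate number as a block, 4 members (5.33%) were called after 12 h, all lower, against 4.94% of all tested genes called and 2.99% called lower. At an unadjusted p under 0.05 the block gave 47 lower members (62.7%) after 12 h against 9.73% of all tested genes. By edgeR with the block, 0 members were called at 4, 8 or 24 h or for the slope, where 0.0344, 0.744, 5.32 and 5.67% of all tested genes were called and 0.00688, 0.73, 3.46 and 3.64% were called lower. Rpl22l1, a paralog of Rpl22 that takes its place in some ribosomes, had 46.3 and 47.4 CPM at 0 h and 34.9 and 39.6 CPM after 12 h. Its groups did not overlap, and its log2 change under the block was -0.33 ± 0.08 (SE, adjusted p = 0.0114, edgeR). Rps16, of the small subunit, had 40.5 and 29.5 CPM at 0 h and 24.9 and 26.7 CPM after 12 h, a change of -0.44 ± 0.11 (adjusted p = 0.0157, edgeR), and it was back at 32.1 and 38.3 CPM after 24 h. Rps21, of the small subunit, had 82.0 and 50.01 CPM at 0 h and 48.7 and 49.6 CPM after 12 h, a change of -0.42 ± 0.13 (adjusted p = 0.0469, edgeR). Rps15, near the decoding site, had 69.1 and 44.7 CPM at 0 h and 44.9 and 40.9 CPM after 12 h, a change of -0.40 ± 0.12 (adjusted p = 0.0488, edgeR). The groups of Rps15 overlapped. Without 0 h replicate 1 and without the block, the log2 changes after 12 h were -0.34 for Rpl22l1, -0.19 for Rps16, -0.022 for Rps21 and -0.056 for Rps15, with 0 members called. Without the block their adjusted p after 12 h was 0.148 for Rpl22l1, 0.251 for Rps16, 0.384 for Rps21 and 0.406 for Rps15 (edgeR).

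At 24 h the lowest changes were those of Rps21 (-0.28 ± 0.18, SE) and Rpl41 (-0.27 ± 0.15). Rpl41 had 125 and 81.3 CPM at 0 h and 91.1 and 79.7 CPM after 24 h. For both genes the second library of 0 h lay within 10 CPM of both 24 h libraries. Without 0 h replicate 1 their changes were 0.13 and 0.076. The highest were those of the pseudogene Rpl14-ps1 (0.20 ± 0.26, at 1.63 to 2.71 CPM over all libraries), Rpl7l1 (0.09 ± 0.07) and Rps15a (0.05 ± 0.08). Rpl7l1, a nucleolar relative of Rpl7, had 119 and 115 CPM at 0 h and 127 and 122 CPM after 24 h. None of these 5 was called, with adjusted p of 0.609 to 0.91 by edgeR.

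The stalk proteins varied between libraries as the family did, with correlations of 0.946 to 0.971 with the mean of the others. Rplp0, which anchors the stalk, had 197 and 165 CPM at 0 h and 186 and 151 CPM after 24 h. Rplp2 had 129 and 107 CPM at 0 h and 117 and 103 CPM after 24 h, and Rplp1 had 161 and 104 against 127 and 106 CPM. In all 3, replicate 1 was the higher library at both times and the groups overlapped. The 5S particle and Rps27a showed no lower side after 24 h, and Rpl5 correlated less with the others (0.646). Rpl5 had 325 and 332 CPM at 0 h and 361 and 307 CPM after 24 h, Rpl11 85.7 and 71.3 against 77.3 and 80.8 CPM, and Rps27a 96.3 and 79.5 against 100 and 80.4 CPM. Their log2 changes after 24 h were 0.023 ± 0.08, 0.010 ± 0.11 and 0.038 ± 0.11 (SE). Among the members, 15 were listed with known lesions in Diamond-Blackfan anaemia, an inherited failure of red cell formation. Of these, 0 were called at any time by edgeR. At an unadjusted p under 0.05, 5 of the 15 were lower after 12 h and 0 after 24 h. By that rule 28% of all members and 6.1% of all tested genes were lower after 12 h. The median log2 change of the 15 was -0.072 after 24 h.

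The median SE of a member's log2 change was 0.106 at 12 and after 24 h, so that with 2 replicates a change of the size of the family median lies within 2 SE. Absence of calls does not show that levels were equal.

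The members rose and fell together from library to library. The correlation of log2 CPM over the 10 libraries had a median of 0.789 over the 2775 pairs of members, and 98.5% of pairs were positive. It was -0.001 over all pairs of tested genes and 0.03 over pairs of tested genes with a mean count of 500 or more, against 0.81 for the 70 members above that count. Autosomal genes outside the family with a span as short as the members' and a mean count of 500 or more had 0.25 (566 genes), and the 74 autosomal mitochondrial ribosomal protein genes had 0.18. All points share the same 10 libraries, and these values are descriptions.

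The libraries in which members were high did not follow the times. The median deviation of the members from their own means was 0.22 and -0.04 (log2 CPM) at 0 h, 0.03 and -0.04 after 4 h, -0.11 and 0.11 after 8 h, -0.07 and -0.11 after 12 h, and 0.13 and -0.10 after 24 h. In 0 h replicate 1, 73 of 75 members were above their own mean, in 8 h replicate 2 65, and in 24 h replicate 1 71. In 8 h replicate 1 and in 12 h replicate 2 only 2 were. The highest over the lowest library was 1.26-fold for the median member. Other autosomal genes of the same span range had medians of 0.087 and 0.004 at 0 h, 0.038 and -0.060 after 4 h, -0.038 and -0.023 after 8 h, -0.062 and -0.025 after 12 h, and 0.117 and 0.006 after 24 h. In 8 h replicate 2, where the members were high, these genes were not. The pattern was not confined to the members. The 4 ribosomal proteins outside the name rule had 0.307 and -0.041 at 0 h, -0.122 and 0.169 after 8 h, and 0.129 and -0.140 after 24 h. The 4 X-linked genes of the name rule had 0.374 and 0.064 at 0 h, -0.141 and 0.078 after 8 h, and 0.003 and -0.318 after 24 h. Genes over 50 kb had -0.05 and -0.01 at 0 h and -0.05 and 0.01 after 24 h.

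**Figure D4:**
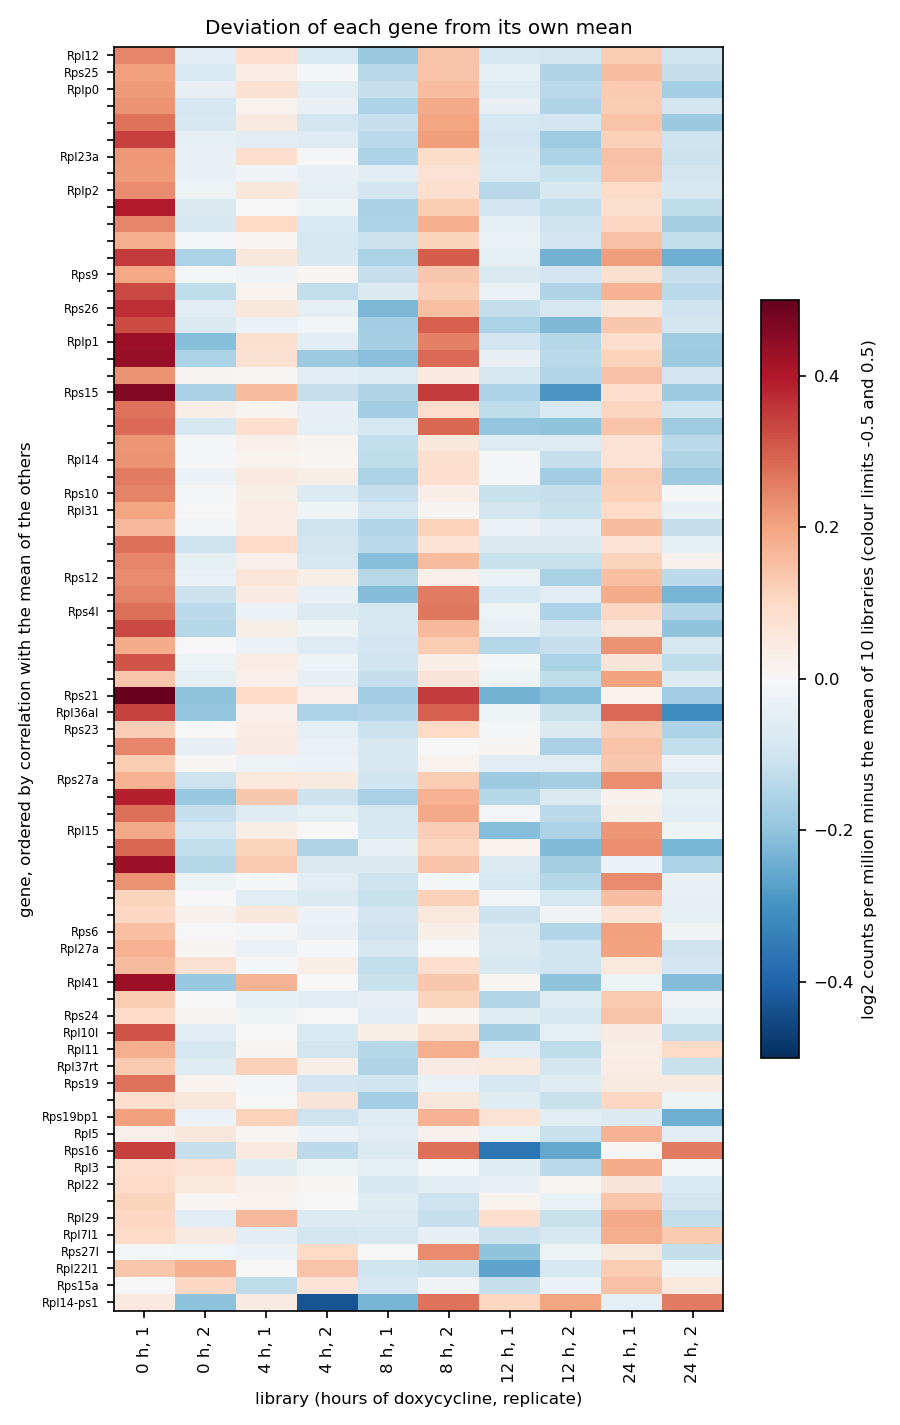
Deviation of each gene from its own mean (colour, log2 CPM) in the 10 libraries (columns), with genes ordered by their correlation with the mean of the other members and those named in the text labelled. Replicate 1 of 0 h is above the mean in 73 of 75 genes, and the bottom rows (Rps27l, Rpl22l1, Rps15a and Rpl14-ps1) depart from the shared pattern.

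The co-variation was weaker without 0 h replicate 1, at a median of 0.701 against 0.789. After the mean of each time was subtracted the median was 0.856. With 2 libraries per time, that value rests only on the difference between the replicates of each time, the 0 h pair included. In reads with an allele the median correlation was 0.499 and in reads without one 0.772. Each of the 75 members correlated positively with the mean of the others, 70 of them above 0.5. The closest followers were Rpl12 (0.975), Rps25 (0.974) and Rplp0 (0.971), and among the most alike pairs were Rpl27a with Rps24 (0.983) and Rpl31 with Rps10 (0.983). Both pairs joined a protein of the large subunit to one of the small subunit.

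The members that followed least were Rpl14-ps1 (0.139), Rps15a (0.185), Rpl22l1 (0.393), Rps27l (0.44) and Rpl7l1 (0.469). Of these 5 only Rps15a is canonical, a protein of the small subunit with the longest span among members (11.8 kb). It had 293 and 316 CPM at 0 h, 270 and 308 after 4 h, 278 and 291 after 8 h, 271 and 288 after 12 h, and 326 and 305 after 24 h. It was thus lower in replicate 1 than in replicate 2 up to 12 h. Rps21 was higher in replicate 1 at 0 h (82.0 and 50.01 CPM) and after 4 h (61.4 and 58.4 CPM). After 8 and 12 h Rps21 was lower in replicate 1 as well, with total counts of 1083 and 1434 and of 993 and 1061.

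Short members varied more than long ones. The coefficient of variation over the 10 libraries ran from 4.3% (Rpl22, 9.65 kb) to 19.3% (Rps21, 1.07 kb), with a median of 9.32% against 9.52% over all tested genes. Across the 75 members it had a Spearman correlation of -0.733 with the span and -0.568 with the mean count. The log2 ratio of the 0 h libraries, replicate 1 over 2, was above 0 for 72 members, with a median of 0.26 against 0.00 over all tested genes, and its Spearman correlation with the span was -0.68. It was 0.332 with the share of the span in exons, and -0.173 with the share of reads that carry an allele. These are descriptions across genes of the same libraries.

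Genes that work beside the ribosome were read in the same way. Of 24 tested translation factors and other genes with TOP mRNAs (Rpsa, Fau and Rack1 among them), 0 were called at any time and the median log2 change was -0.07 after 12 h and -0.03 after 24 h. Of 37 ribosome assembly factors, 0 were called, with medians of -0.07 and -0.03, and of 27 genes of RNA polymerase I and of growth control, such as mTOR and Myc, 0 with medians of 0.03 and -0.02. The 4 ribosomal proteins outside the name rule had medians of -0.24 after 12 h and -0.15 after 24 h, and the 74 mitochondrial ones -0.09 and 0.04, each with 0 called. By edgeR at an unadjusted p under 0.05, 4 genes of the first list, 8 assembly factors, 1 gene of the third list, 2 of the 4 ribosomal proteins and 1 mitochondrial one were lower after 12 h, and 1 gene of the third list was higher. Over all tested genes 6.1% were lower and 5.42% higher. The assembly factors include the X-linked Dkc1 and Utp14a, whose B6 share was called lower after 24 h (log2 changes of -0.31 and -0.51).

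Allelic reads asked whether the members' balance between the parental genomes moved while the B6 X chromosome was being silenced. Pooled over members, the B6 share of allelic reads was 0.523 and 0.530 at 0 h, 0.526 and 0.531 after 4 h, 0.530 and 0.529 after 8 h, 0.526 and 0.531 after 12 h, and 0.528 and 0.531 after 24 h. The 95% Wilson intervals, which cover counting error only, reached from 0.520 to 0.526 in 0 h replicate 1 and from 0.528 to 0.534 in 24 h replicate 2. The shares of all times overlapped. The median autosomal gene had a share of 0.523 to 0.527 in the same libraries. The median of the members' own shares, the like measure, was 0.520 (12 h replicate 1) to 0.532 (8 h replicate 1), a range around the autosomal values. The pooled share, in which members with more reads weigh more, lay above the median autosomal gene in all libraries but 0 h replicate 1. This difference was not tested.

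No member was called changed in B6 share. By edgeR on B6 and Cast counts, 0 of the 71 members with at least 10 allelic reads in every library were called at 4, 8, 12 or 24 h, where 0.353, 1.65, 2.16 and 2.65% of the 11906 tested genes were, and DESeq2 also called 0. At an unadjusted p under 0.05, 2, 2, 1 and 2 members were higher, against 2.34, 2.51, 3.15 and 3.42% of all tested genes, and 1, 1, 1 and 2 were lower, against 2.64, 3.54, 4.38 and 4.88%. All tested genes include X-linked ones, which the rule leaves out of the members. Of 2659 other autosomal genes in the members' span range, 0, 2, 0 and 4 were called at 4, 8, 12 and 24 h. The absence of calls thus does not set the members apart from such genes. The smallest adjusted p of a member was 0.097, for Rps19 after 24 h (edgeR). Without 0 h replicate 1, 1 member was called after 24 h (Rpl5, toward Cast), and without 0 h replicate 2, 2 were (Rps6 toward B6 and Rps19 toward Cast). Calls without a library are given here without the share of all tested genes, so they do not set the members apart. The median SE of the log2 ratio change was 0.0959 after 24 h.

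The members' X-linked relatives gave other values in the same libraries. For Rps4x the B6 share was 0.512 and 0.520 at 0 h and 0.371 and 0.382 after 24 h, a log2 ratio change of -0.82 ± 0.07 (SE). For Rpl10 it was 0.561 and 0.544 at 0 h and 0.429 and 0.445 after 24 h, a change of -0.66 ± 0.13. Rpl36a and Rpl39 had no allelic reads. Both genes with allelic reads were called at 12 and 24 h. In total count 0 of the 4 X-linked genes were called at any time against 0 h by edgeR. All 4 were lower after 12 and 24 h at an unadjusted p under 0.05, with a median of -0.36 after 24 h. For the slope over hours 2 of the 4 were called, both lower, against 3.15% of all tested genes. On chromosome 16, 3 genes were tested and 0 were called in either measure (2 lower in total count after 12 h at an unadjusted p).

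Over the 10 libraries many members were read unequally from the B6 and Cast alleles, at a share near that of all tested genes. By edgeR, 52 of 71 members (73.2%) were called, against 70% of the 11906 tested genes, with 29 (40.8%) toward B6 against 34.8% of all genes and 23 (32.4%) toward Cast against 35.3%. The difference from other genes was not tested. This test compares a gene with the typical gene, whose B6 share is near 0.525. With equal scaling of both alleles, which shifts the median of all genes from -0.01 to 0.12 on the log2 scale, 73.7% of the members' calls were toward B6 (42 toward B6 and 15 toward Cast) against 66.0% of all called genes. Without it these shares were 55.8 and 49.7%. Rpl15 and Rpl7l1 changed sides under this shift, which applies to all genes. By a log2 ratio of at least 0.5 in size, 11 of 71 (15.5%) were called, against 31% of all tested genes, 8 toward B6 (14.7% of all) and 3 toward Cast (16.4%). All tested genes include those on chromosomes X and 16, which the rule leaves out of the members. The comparisons with all tested genes are therefore not like for like, and this difference was not tested. In 45 of 71 members the share was on the same side of 0.5 in all 10 libraries. The same count over all tested genes is not given, so it does not set the members apart.

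The pseudogene Rpl37rt on chromosome 5 had the most unequal reads. Its B6 share was 0.840 to 0.932 over the 10 libraries with a median of 0.887, from 63 to 86 allelic reads in each, and its log2 ratio was 2.75 ± 0.12 (SE, adjusted p = 6.1e-14, edgeR). Rpl29, of the large subunit, had a share of 0.590 to 0.705 (median 0.644) and a log2 ratio of 0.74 ± 0.07. The stalk proteins differed, with Rplp1 at 0.617 to 0.685 (median 0.642) and Rplp0 at 0.602 to 0.655 (median 0.619) toward B6, and Rplp2 at 0.479 to 0.513. Rps26 had a share of 0.613 to 0.689 (median 0.632), Rps9, which binds early to 18S ribosomal RNA, 0.608 to 0.674 (median 0.633), and Rpl11 0.611 to 0.666 (median 0.621). Rpl5, the partner of Rpl11 in the 5S particle, had 0.512 to 0.570 and was not called (adjusted p = 0.246, edgeR).

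On the side of Cast, the retrogene Rpl10l had the lowest share, 0.267 to 0.463 (median 0.37) from 30 to 56 allelic reads, with a log2 ratio of -0.91 ± 0.13 (adjusted p = 3.2e-06, edgeR). Rps23, a protein of the decoding centre, had 0.378 to 0.423 (median 0.402) and a log2 ratio of -0.69 ± 0.04. Rpl23a had 0.402 to 0.465 (median 0.43), and Rps6, the target of the S6 kinases, 0.378 to 0.490 (median 0.438). All 4 lay below 0.5 in every library. Rps12, the member with the highest level, had 0.441 to 0.469 from 3446 to 4250 allelic reads, and its log2 ratio was -0.39 ± 0.02. The order within either end is not resolved, since neighbouring ranges overlap.

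**Figure D5:**
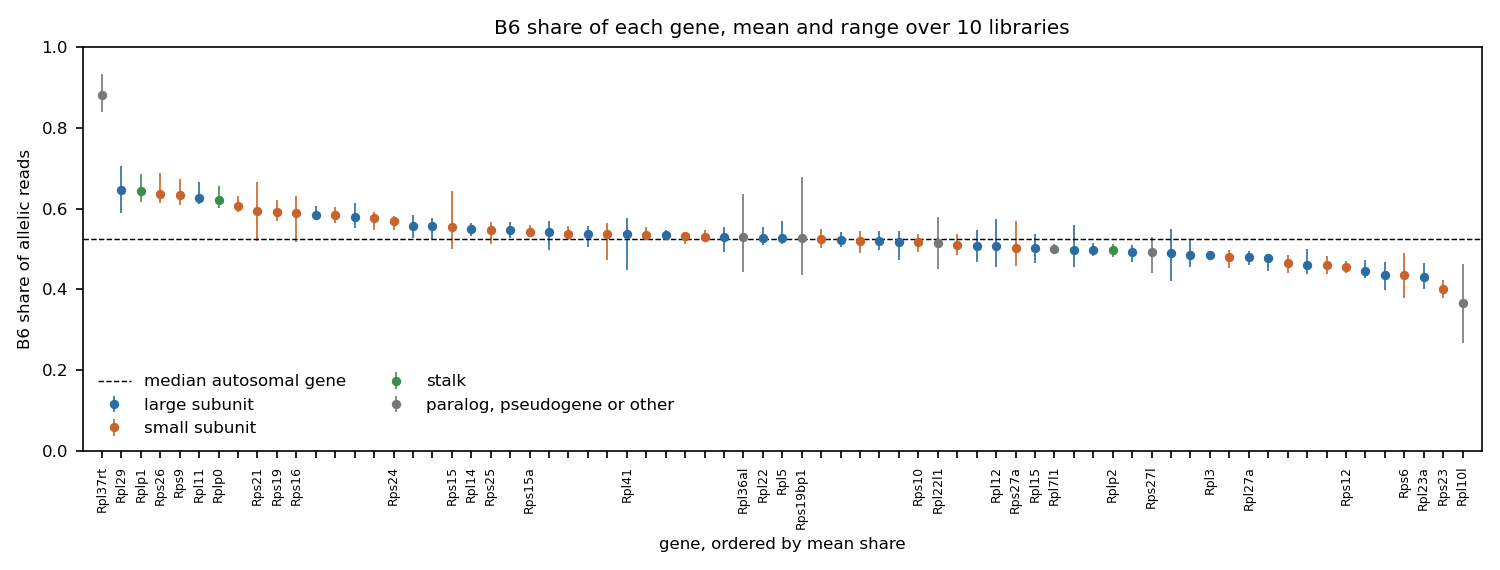
B6 share of allelic reads (y axis) of the 71 tested genes, ordered by mean (x axis, genes named in the text labelled). Points are means over the 10 libraries, bars run from the lowest to the highest library, colours give the role, and the dashed line is the median autosomal gene. Rpl37rt (0.881) and Rpl10l (0.366) are the ends, and 19 members lie above 0.55 and 6 below 0.45. These counts are not given over all tested genes.

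Of the other paralogs and Rps19bp1, Rps27l (0.492 ± 0.0256, SD, n = 10) and Rpl7l1 (0.501 ± 0.00884) were called lower than the typical gene, and Rpl22l1 (0.516 ± 0.0374), Rpl36al (0.529 ± 0.0664) and Rps19bp1 (0.527 ± 0.0646) were not. Rpl13a and Rpl31 had no allelic read among 40699 and 36861 reads, which allows an allelic share of up to 0.00737 and 0.00814%, and Rpl14-ps1 had none among 467, which allows up to 0.642%. These limits correspond to 3 counts. Rps4l had 8 to 25 allelic reads in a library, and it was not tested either. At Rpl12 3.33% of reads and at Rps12 78.7% of reads carried an allele, so the precision of a share differed widely between members.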

How the data were processed

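TT-seq libraries from 10 samples were used, 2 replicates at each of 5 times. Per the authors' methods, reads were trimmed with Cutadapt, aligned uniquely with STAR to a genome (mm10) masked at B6 and Cast SNPs, split by allele with SNPSplit and counted by strand over gene spans with featureCounts; the labels' tool list gives featureCounts 1.5.1 and also TopHat2 2.1.0. The deposited counts hold all reads, B6 reads and Cast reads of each gene, with no normalization. The deposited allelic fraction equals B6 reads over B6 plus Cast reads in every row. Spike-ins were not used here, so a change shared by all genes would not be seen.

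Counts were tested with edgeR 4.0.16 (filterByExpr, TMM, quasi-likelihood test) in R 4.3.3, with all 10 samples in one fit and Benjamini-Hochberg adjustment over all tested genes. Allelic counts were fitted over 20 columns with an intercept per sample, where no sample had fewer than 10 reads with an allele. Both fits were tested on simulated data. DESeq2 1.42.0 and limma 3.58.1 (voom) were alternatives, together with other scaling, no filter, a replicate block, each library left out in turn and, chosen after seeing the data, reads with and without an allele. In total counts, same-numbered replicates deviated together (correlation 0.142 to 0.281 over the 10 pairs of times), so blocked values are given where they change a call; in B6 shares they did not (0.000396 to 0.0324). The study calls its replicates biological duplicates, the labels give only replicate numbers, and p-values measure the spread between these samples. The gene rule, the gene lists and the tests were chosen with earlier results of these data known. Named members were those called (up to 10 in each direction), the 3 highest and 3 lowest changes at 24 h, the 5 highest and 3 lowest levels, the 5 highest and 5 lowest B6 shares, the members of the role lists and the 3 most alike pairs; other members were named after their values were seen. Some items that these rules would name are not reported here.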

Additional observations from a re-analysis of the deposited data

How the results depend on the processing

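Leaving out a library moved the total counts most. Calls from these fits are given without the share of all tested genes, so they do not set the members apart. The members called after 12 h ranged from 0 to 6 and after 24 h from 0 to 2, the upper values without 0 h replicate 2, and 0 were called after 4 h, after 8 h or for the slope. The median log2 change ranged from -0.24 to 0.052 after 4 h, from -0.23 to 0.034 after 8 h, from -0.34 to -0.055 after 12 h and from -0.22 to 0.066 after 24 h, with the upper values without 0 h replicate 1. The median was also above 0 without 8 h replicate 1 (0.00031 after 8 h) and without 24 h replicate 2 (0.021 after 24 h). With the replicate block 4 members were called after 12 h, and in B6 share 1 (Rps6 after 24 h), where replicate numbers did not pair the samples. The block moved no other count of calls at an adjusted p by over 1.5 times, and at an unadjusted p it gave 4, 9 and 4 lower members after 4, 8 and 24 h, which is 5.33, 12 and 5.33% against 2.71, 4.65 and 8.31% of all tested genes. Members called in B6 share ranged from 0 to 1 after 12 h (Rps6, without 0 h replicate 2) and from 0 to 2 after 24 h (Rps6 and Rps19 without 0 h replicate 2, Rpl5 without 0 h replicate 1, Rps6 without 24 h replicate 1). Leaving out a library, the members called with an allelic difference ranged from 50 to 54.

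The median correlation between members was 0.84 with library totals only, 0.856 within times and 0.499 in reads with an allele, and ranged from 0.701 to 0.81 when a library was left out. Over autosomal counts without Rn45s the members' share was 0.994% after 4 h and 0.91% after 12 h. The median of the members' own B6 shares was 0.524 after 4 h, 0.527 after 8 h and 0.527 after 24 h. The cause of these differences was not tested. For the main results, 266 alternative values stayed close to the main value and 22 moved, but this tally does not measure robustness. Counts of calls that were 0 in both fits counted as close. The share of counts and the pooled B6 share at a time could not move when a replicate was left out. With 2 replicates, either one always lies within their SD of the mean. Counts of calls were judged by the fold limit used above for the block. A median log2 change counted as close within the replicate spread (0.133), also where its sign changed. This held for the median after 24 h without 24 h replicate 2 (0.021 against -0.083). It also held for the median after 8 h without 0 h replicate 1 (0.034 against -0.090). With 2 replicates and a median SE of 0.106, changes of the family's size are below what these libraries can resolve for a single member.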
